A study of Mus musculus with 9 samples.

Results

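The genes described are 8 genes of the endothelin, angiotensin and beta-adrenergic systems, measured in mouse left ventricle: Edn1, Ednra, Ednrb, Ece1, Ace, Agt, Agtr1a and Adrb1. They were chosen by gene name and are 8 of the 49671 genes listed in the count tables. All 8 were found under their Ensembl identifiers, and all 8 passed the filter on low counts. Polyadenylated RNA of the ventricle was sequenced from wild-type mice (WT) and from mice with a knockout of delta-sarcoglycan (dSG KO, gene Sgcd; KO), a membrane protein that helps to tie the cytoskeleton of heart muscle to the matrix outside the cell. Mice of each genotype received vehicle or ifetroban, an antagonist of the thromboxane-prostanoid receptor. Vehicle was given in 2 libraries of each genotype, and ifetroban in 2 libraries of WT and 3 of KO. Age, strain background, sex, dose, duration of treatment and the deleted part of Sgcd are not given in the sources used here. The labels do not say whether the libraries of a group were made from different mice. The p-values therefore measure only the spread between these libraries, which may be technical.

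The 3 systems are classical regulators of vascular tone and of the force and growth of heart muscle. In the endothelin system, Edn1 encodes the precursor of the endothelin-1 peptide, Ece1 the protease that makes the active peptide from it, and Ednra and Ednrb its receptors. Ednra, the constricting receptor of smooth muscle and cardiomyocytes, signals mainly through Gq, and Ednrb is known for its role in endothelium, where it releases nitric oxide and clears the peptide. In the renin-angiotensin system, Agt encodes angiotensinogen, renin cuts it, Ace encodes the enzyme that makes angiotensin II, and Agtr1a encodes the main rodent receptor for that peptide, also coupled to Gq. Adrb1 encodes the beta-1 adrenergic receptor, which carries the noradrenaline signal of cardiac nerves through Gs to cyclic AMP.

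Each library held 21299748 to 31394548 reads assigned to genes. Sgcd, the targeted gene, stood at 28.9, 33.1 and 31.2 CPM (counts scaled to library size by the TMM method) in 3 WT libraries and at 7.49 to 18.5 CPM in the 5 KO libraries. The library labelled WT vehicle replicate 1 had 11.1 CPM of Sgcd, inside the range of the KO libraries, and KO minus WT of Ece1, Ednrb, Agt, Ace and Edn3 is also given without it. KO vehicle replicate 1 stood apart on the first principal component, which held 47.5% of the variance, at 84.4 against -38.2 to 34.2 in the other 8 libraries. It also held liver transcripts: the 6 hepatocyte markers summed to 82.4 CPM there (Alb alone 59.7 CPM), against sums of 0.277 to 6.55 CPM elsewhere. All 6 had reads in it, as they did in WT vehicle replicate 2 and KO ifetroban replicate 1. Transcript length separated the libraries as well. Reads of long transcripts were scarce, beside those of short transcripts, in both KO vehicle libraries, in KO ifetroban replicate 1 and in the library labelled WT vehicle replicate 1. There the Spearman correlations of deviation with exonic length across 15235 genes were -0.417 to -0.29. In the other 5 libraries the correlations were 0.302 to 0.386. The class with low long transcripts thus held 3 KO libraries and, of those labelled WT, only the 1 whose Sgcd level lay in the KO range. Sgcd levels differed between the classes in KO too. They were 7.49, 12.1 and 9.77 CPM in the 3 KO libraries of that class, and 16.4 and 18.5 CPM in KO ifetroban replicates 2 and 3. The part of the length class in the Sgcd level of the library labelled WT vehicle replicate 1 was not tested. The summed cardiomyocyte markers were 60080 to 66360 CPM in KO and 70630 to 76180 CPM in WT. Macrophage markers summed to 334 to 420 CPM in KO and 188 to 257 CPM in WT, and fibroblast markers to 2344 to 3226 and 2024 to 2339 CPM. Atrial myocyte markers summed to 365 to 1281 CPM in KO and 209 to 281 CPM in WT, and adipocyte markers to 0.935 to 2.15 and 0.308 to 0.541 CPM. Of the 5 atrial markers 2 were tested. KO minus WT averaged over treatments was 1.68 on the log2 scale for Nppa (adjusted p = 0.0324 by edgeR) and 0.40 for Myl4 (0.42). Of the 6 adipocyte markers only Cfd was tested. The atrial and adipocyte sums thus do not by themselves show cells of these types. The 10 cardiomyocyte markers had a median of -0.056, with 0 called. The marker sums given for KO and WT had ranges that did not overlap, so every library labelled WT lay outside the KO range. They thus say nothing particular about the library labelled WT vehicle replicate 1, which held 76180 CPM of cardiomyocyte and 257 CPM of macrophage markers. Its sums lay inside the KO range for endothelial, pericyte, hepatocyte and Schwann cell markers. They lay outside it for endocardial and venous, smooth muscle, mast cell, sympathetic neuron and mesothelial markers. In bulk tissue, a change in the number of cells of a type and a change in RNA per cell cannot be told apart.

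All 8 genes had reads in every library, and their order was that of converting enzymes first, receptors next and peptide precursors last. On the scale of CPM per kilobase of exonic length (CPM per kb), the only one used here to compare genes, Ece1 had the highest mean level, 19.5 ± 2.40 (SD, n = 9 libraries), followed by Ace at 15.7 ± 2.99. The receptors followed: Agtr1a at 12.7 ± 3.17, Adrb1 at 9.04 ± 1.53, Ednra at 7.49 ± 1.49 and Ednrb at 5.56 ± 0.683 CPM per kb. The precursors came last, with Agt at 3.95 ± 1.80 and Edn1 at 2.73 ± 0.920 CPM per kb. Each neighbouring pair in this order overlapped in range over the libraries, whereas Ece1 (15.4 to 22.3 CPM per kb) and Edn1 (1.92 to 4.94) did not. Overlap of ranges does not decide the order of neighbours within a library, which is given below for Ednra and Ednrb only. The precursors rested on few reads, 113 to 227 per library for Edn1 and 70 to 290 for Agt, while Ece1 had 1588 to 3508.

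**Figure D1:**
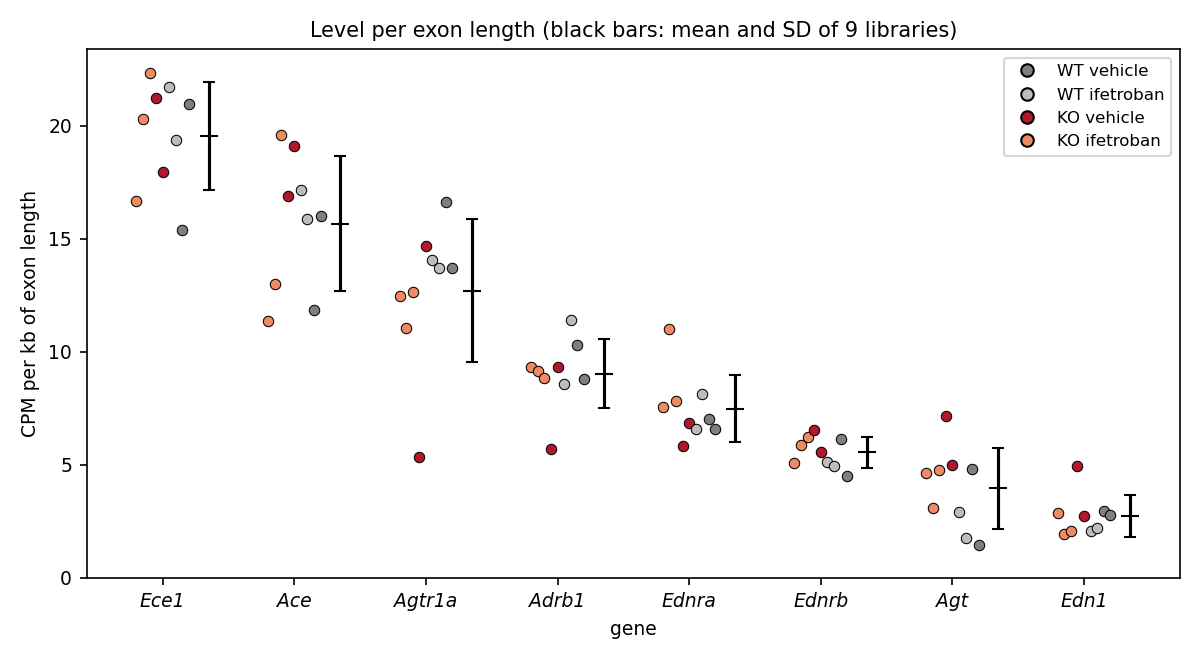
Level of the 8 genes in CPM per kb of exonic length (vertical axis), 1 point per library coloured by group, with the mean and SD of all 9 libraries in black. Ece1 and Ace lie at the top, Agt and Edn1 at the bottom, and neighbours overlap.

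No gene of the 8 passed the test in any of the 6 contrasts. The contrasts were KO minus WT averaged over both treatments, KO minus WT within vehicle and within ifetroban, ifetroban minus vehicle within KO and within WT, and the interaction (the drug effect in KO minus that in WT). With edgeR's quasi-likelihood test at an adjusted p under 0.05, over 15261 tested genes, 0 of 8 were called in the averaged contrast, where 0.537% of all genes were called. The same count was 0 of 8 within vehicle (0.0524% of all genes) and within ifetroban (0.0131%). It was also 0 of 8 for ifetroban in KO, ifetroban in WT and the interaction, where 0% of all genes were called. At an unadjusted p under 0.05, 1 of 8 (Agt) lay in the averaged contrast against 16.5% of all genes, and 2 of 8 (Edn1 and Ednra) for ifetroban in KO against 5.02%. None lay under that limit within vehicle (12.5% of all genes), within ifetroban (4.7%), for ifetroban in WT (1.26%) or for the interaction (1.38%). DESeq2 also called 0 of 8 in each of the 6 contrasts, with 4.77%, 2.32%, 0.45%, 0.011%, 0% and 0% of all genes called, in the order in which the contrasts are listed above. In the averaged contrast 6 of 8 log2 fold changes were positive, with a median of 0.09 beside -0.004 over all tested genes, of which 49.5% were positive. A p that misses the threshold does not show that the level was the same, so the intervals are given with each gene.

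**Figure D2:**
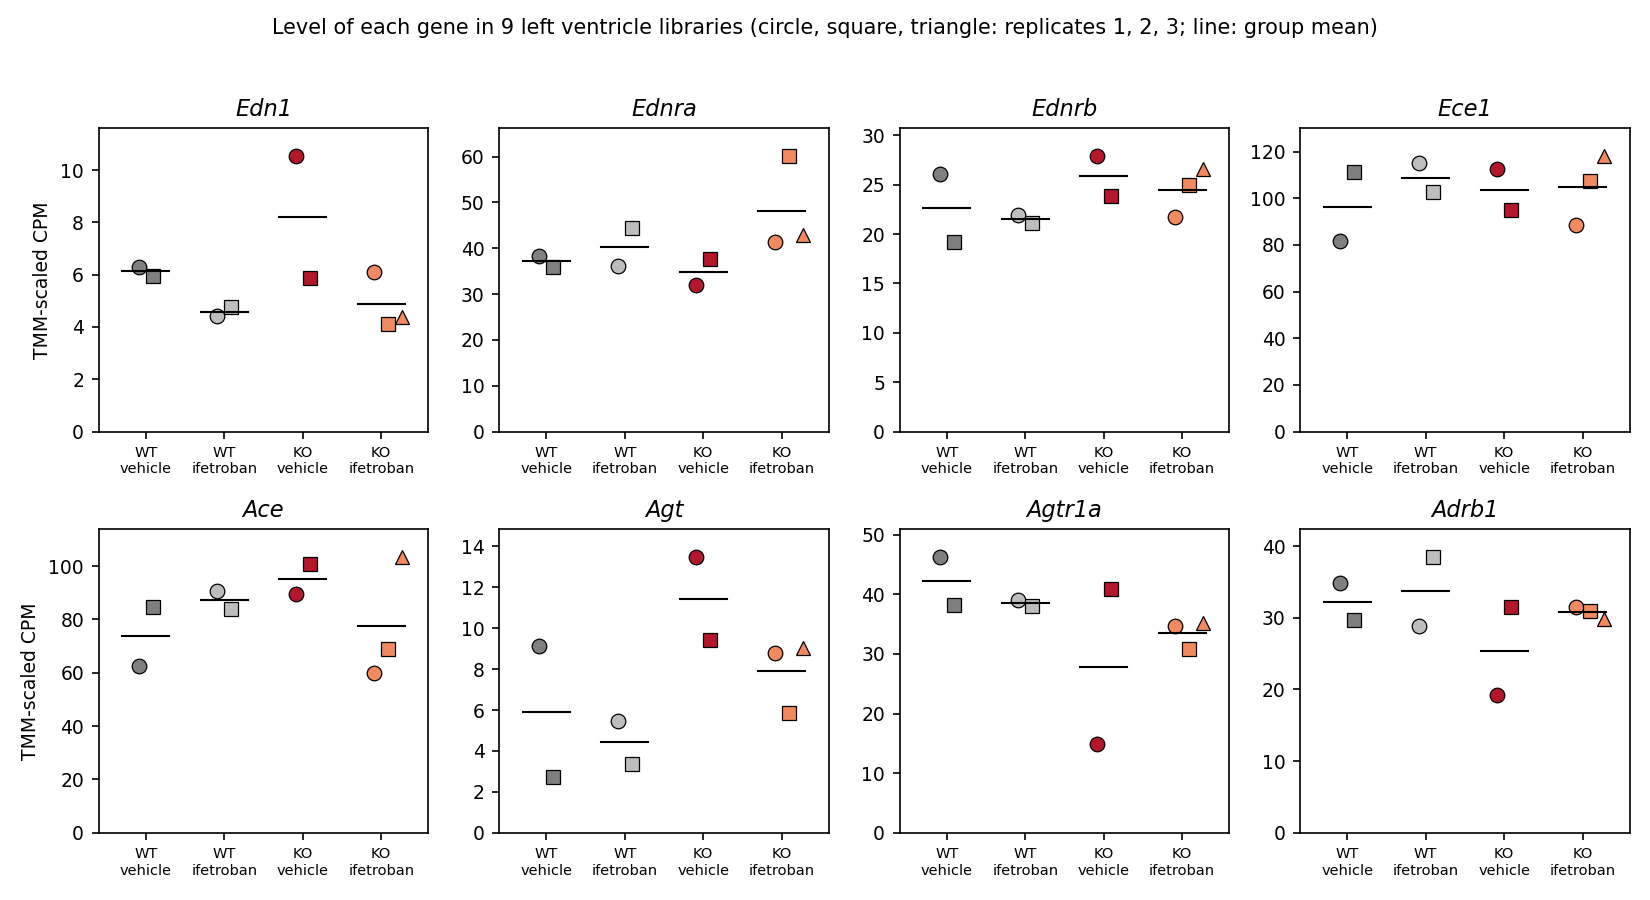
TMM-scaled CPM (vertical axes, starting at 0) of each gene in the 4 groups, 1 symbol per library (circle, square and triangle for replicates 1, 2 and 3), with a line at the group mean. KO vehicle replicate 1 is the highest library for Edn1, Ednrb and Agt and the lowest for Ednra, Agtr1a and Adrb1.

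Edn1 (ENSMUSG00000021367, chromosome 13, 42301476 to 42307990, plus strand, GRCm38), the endothelin precursor gene, was at 6.31 and 5.95 CPM in the WT vehicle libraries and at 4.41 and 4.75 CPM under ifetroban. The KO vehicle libraries held 10.6 and 5.88 CPM, and the KO ifetroban libraries 6.12, 4.11 and 4.38 CPM. One library, KO vehicle replicate 1, was far above the other 8, which lay between 4.11 and 6.31 CPM. Both WT ifetroban libraries were below both WT vehicle libraries. In KO the groups overlapped, because 1 ifetroban library exceeded KO vehicle replicate 2. Edn1 levels also differed between the length classes. They were 5.88 to 10.6 CPM where long transcripts were low and 4.11 to 5.95 CPM elsewhere. In KO, every vehicle library was in the low class, and of the ifetroban libraries only the one at 6.12 CPM was. Ifetroban minus vehicle in KO thus does not separate the drug from the length class. The fitted log2 fold change of ifetroban against vehicle in KO was -0.76 ± 0.281 (SE; 95% confidence interval -1.39 to -0.13; unadjusted p = 0.0234; adjusted p = 0.688 by edgeR). Without KO vehicle replicate 1 it was -0.28 (adjusted p = 0.962 by edgeR). In WT the same contrast gave -0.42 ± 0.315 (-1.12 to 0.29; adjusted p = 0.999 by edgeR), and the interaction was -0.34 ± 0.423 (-1.28 to 0.61). Averaged over treatments, KO minus WT was 0.25 ± 0.212 (-0.22 to 0.73; adjusted p = 0.564 by edgeR), and 0.01 and 0.43 when KO vehicle replicates 1 and 2 were left out in turn.

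Ece1 (ENSMUSG00000057530, chromosome 4, 137862237 to 137965229, plus strand), the endothelin-converting enzyme, was the steadiest gene of the set in relative terms, with a ratio of 1.45 between its highest and lowest library. Ednrb shared that ratio, 1.45. Ece1 was at 81.5 and 111 CPM in WT vehicle, 115 and 103 in WT ifetroban, 112 and 95 in KO vehicle and 88.4, 108 and 118 CPM in KO ifetroban. The groups overlapped in every comparison. KO minus WT, averaged, was 0.03 ± 0.143 on the log2 scale with an interval of -0.29 to 0.34 (adjusted p = 0.941 by edgeR), or -0.092 with the library labelled WT vehicle replicate 1 left out. Ifetroban against vehicle in KO was 0.01 ± 0.192 (-0.42 to 0.44).

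Ednra (ENSMUSG00000031616, chromosome 8, 77663031 to 77724464, minus strand), the endothelin receptor coupled to constriction, was at 38.4 and 36.0 CPM in WT vehicle and 36.1 and 44.4 CPM in WT ifetroban. It was at 32.0 and 37.6 CPM in KO vehicle and at 41.3, 60.2 and 42.9 CPM in KO ifetroban. All 3 KO ifetroban libraries lay above both KO vehicle libraries, with KO ifetroban replicate 2 well above the rest. Such a separation in either direction was seen for 16% of all tested genes in that contrast. Ednra was at 32.0 to 41.3 CPM in the libraries with low long transcripts and 36.0 to 60.2 CPM in the others. Both KO vehicle libraries were in the low class, and of the KO ifetroban libraries only the one at 41.3 CPM was. For Ednra too, ifetroban minus vehicle in KO does not separate the drug from the length class. The log2 fold change was 0.47 ± 0.201 (0.02 to 0.92; unadjusted p = 0.0417; adjusted p = 0.688 by edgeR), and 0.28 without KO ifetroban replicate 2. WT libraries overlapped between treatments (0.12 ± 0.217, interval -0.37 to 0.60), and the interaction was 0.36 ± 0.295 (-0.30 to 1.02), or 0.16 with KO ifetroban replicate 2 left out. KO and WT did not differ beyond the spread when averaged, at 0.08 ± 0.147 (-0.25 to 0.41; adjusted p = 0.803 by edgeR).

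Ednrb (ENSMUSG00000022122, chromosome 14, 103814625 to 103844402, minus strand), the endothelial endothelin receptor, was at 26.1 and 19.2 CPM in WT vehicle, 21.9 and 21.1 in WT ifetroban, 28.0 and 23.8 in KO vehicle and 21.7, 25.0 and 26.6 CPM in KO ifetroban. The highest WT value came from the library labelled WT vehicle replicate 1, and 2 of 5 KO libraries exceeded it. KO minus WT, averaged, was 0.19 ± 0.133 (-0.11 to 0.49; adjusted p = 0.485 by edgeR). It was 0.29 without that library and 0.075 without WT vehicle replicate 2. Per exonic length, Ednra exceeded Ednrb in 8 of 9 libraries, with ratios of 1.15 to 1.87, and the ratio was 0.891 in KO vehicle replicate 1.

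Agt (ENSMUSG00000031980, chromosome 8, 124556534 to 124569706, minus strand), which encodes angiotensinogen, had the largest KO minus WT difference of the 8 genes. It was at 9.14 and 2.70 CPM in WT vehicle, 5.48 and 3.37 in WT ifetroban, 13.5 and 9.41 in KO vehicle and 8.79, 5.86 and 9.04 CPM in KO ifetroban. All 5 KO libraries were above 3 of the 4 WT libraries. The exception, labelled WT vehicle replicate 1, had 9.14 CPM, above 3 of the 5 KO libraries. The mean was 9.32 ± 2.73 CPM (SD, n = 5) in KO and 5.17 ± 2.90 CPM (SD, n = 4) in WT. The averaged log2 fold change was 0.90 ± 0.339 (95% confidence interval 0.14 to 1.66; unadjusted p = 0.0251; adjusted p = 0.241 by edgeR). Leaving out the library labelled WT vehicle replicate 1 gave 1.44 (adjusted p = 0.135 by edgeR), and leaving out WT vehicle replicate 2 gave 0.56 (adjusted p = 0.467 by edgeR). Each vehicle and ifetroban KO library exceeded the WT libraries of its treatment. Such separation was seen for 35.1% of all genes within vehicle and 29% within ifetroban. The fold changes were 0.96 ± 0.495 (-0.15 to 2.07) and 0.83 ± 0.463 (-0.21 to 1.87) on the log2 scale. Leaving out the same libraries in turn gave vehicle values of 2.05 and 0.31, and the ifetroban value was 1.23 and 0.52 when WT ifetroban replicates 1 and 2 were left out.

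Agt levels also differed between the length classes. In the 4 libraries with low long transcripts Agt was at 8.79 to 13.5 CPM, and in the other 5 at 2.70 to 9.04 CPM. Within the first class the only library labelled WT is WT vehicle replicate 1, the one with Sgcd in the KO range, and the 3 KO libraries minus it gave a log2 difference of 0.18. Within the second the 2 KO minus the 3 WT libraries gave 0.97. A fit with offsets for transcript length gave 0.81 (adjusted p = 0.207 by edgeR), and one with a term for the class, chosen after seeing the data, 0.62 (adjusted p = 0.429 by edgeR). Angiotensinogen is known as a product of liver. The summed liver markers were 82.4 CPM in KO vehicle replicate 1, where Agt was at 13.5 CPM. They were 6.55 CPM in KO ifetroban replicate 1 (Agt 8.79 CPM), 1.15 CPM in KO vehicle replicate 2 (Agt 9.41 CPM) and 1.24 CPM in WT vehicle replicate 2 (Agt 2.70 CPM). With KO vehicle replicate 1 left out the averaged log2 fold change of Agt was 0.76. The summed fibroblast, macrophage, atrial myocyte and adipocyte markers were higher in every KO library than in any WT library. The part of liver RNA and of cell composition in the Agt values was not tested.

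The bases just before the Agt start site are shown because Agt is the gene of the set with the largest genotype difference, with the TATAAA motif in capitals. They are the 100 bases of chr8:124569707-124569806, minus strand, from the RefSeq promoter table of GRCm38.p6, printed 5′ to 3′ so that the last base adjoins the start site.
Agt: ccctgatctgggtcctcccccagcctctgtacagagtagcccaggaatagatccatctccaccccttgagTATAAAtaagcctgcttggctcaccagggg
The motif begins 30 bases before the start. Searched on both strands in the 250 bases before the start, TATAAA was present in 12.4% of the 32851 promoter windows of the table. Of the 11 windows of 7 genes of the set, 2 held it, 1 each of Agt and Ace. The match describes the letters and shows nothing about use of the promoter in these libraries.

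Ace (ENSMUSG00000020681, chromosome 11, 105967945 to 105989964, plus strand), the angiotensin-converting enzyme, was at 62.7 and 84.6 CPM in WT vehicle and 90.7 and 83.9 CPM in WT ifetroban. It was at 89.4 and 101 CPM in KO vehicle and at 59.9, 68.8 and 104 CPM in KO ifetroban, the widest spread of the gene within a group. With vehicle both KO libraries were above both WT libraries, a separation seen in either direction for 35.1% of all tested genes. The log2 fold change was 0.37 ± 0.261 (-0.21 to 0.95; adjusted p = 0.555 by edgeR). It was 0.15 and 0.59 when replicates 1 and 2 labelled WT vehicle were left out in turn. With ifetroban the libraries overlapped, at -0.17 ± 0.237 (-0.70 to 0.36). That value was -0.45 when KO ifetroban replicate 3 was left out and -0.019 when replicate 1 was. The interaction was -0.54 ± 0.352 (-1.33 to 0.25; unadjusted p = 0.155; adjusted p = 0.9998 by edgeR), and -0.32 without the library labelled WT vehicle replicate 1.

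Agtr1a (ENSMUSG00000049115, chromosome 13, 30336441 to 30382867, plus strand), the angiotensin II receptor gene, was at 46.3 and 38.2 CPM in WT vehicle and 39.1 and 38.1 CPM in WT ifetroban. The KO vehicle libraries held 14.8 and 40.9 CPM, and the KO ifetroban libraries 34.7, 30.8 and 35.3 CPM. The KO vehicle pair thus spanned more than the other 7 libraries together, and 4 of the 5 KO libraries lay below every WT library. All 3 KO ifetroban libraries were below both WT ifetroban libraries, a separation seen in either direction for 29% of all genes. The averaged log2 fold change was -0.40 ± 0.245 (-0.95 to 0.15; adjusted p = 0.424 by edgeR). It rested on KO vehicle replicate 1: without it the value was -0.12 (adjusted p = 0.811 by edgeR). Leaving out KO vehicle replicate 2, which makes replicate 1 the only KO vehicle library and assumes that it varies like the others, gave -0.86. The vehicle contrast was -0.60 ± 0.364 (-1.41 to 0.22), with -0.04 and -1.52 when replicate 1 and replicate 2 of KO vehicle were left out in turn. A gene model on the same strand, Gm48161, overlaps Agtr1a in the annotation.

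Adrb1 (ENSMUSG00000035283, chromosome 19, 56722199 to 56733113, plus strand), the beta-1 receptor gene, was at 34.8 and 29.7 CPM in WT vehicle, 28.9 and 38.5 in WT ifetroban, 19.3 and 31.5 in KO vehicle and 31.6, 31.0 and 29.8 CPM in KO ifetroban. As with Agtr1a, KO vehicle replicate 1 was the lowest library, and the other 4 KO libraries lay inside the WT range. The averaged log2 fold change was -0.24 ± 0.163 (-0.60 to 0.13; adjusted p = 0.471 by edgeR), and -0.08 without KO vehicle replicate 1. With KO vehicle replicate 2 left out it was -0.44 (adjusted p = 0.0663 by edgeR), and the vehicle value of -0.34 became -0.032 and -0.75 in the same pair of fits. The 3 KO ifetroban libraries agreed closely, at 30.8 ± 0.878 CPM (SD, n = 3). Ifetroban against vehicle in KO was 0.28 ± 0.221 (-0.22 to 0.77; adjusted p = 0.703 by edgeR), and -0.03 without KO vehicle replicate 1.

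**Figure D3:**
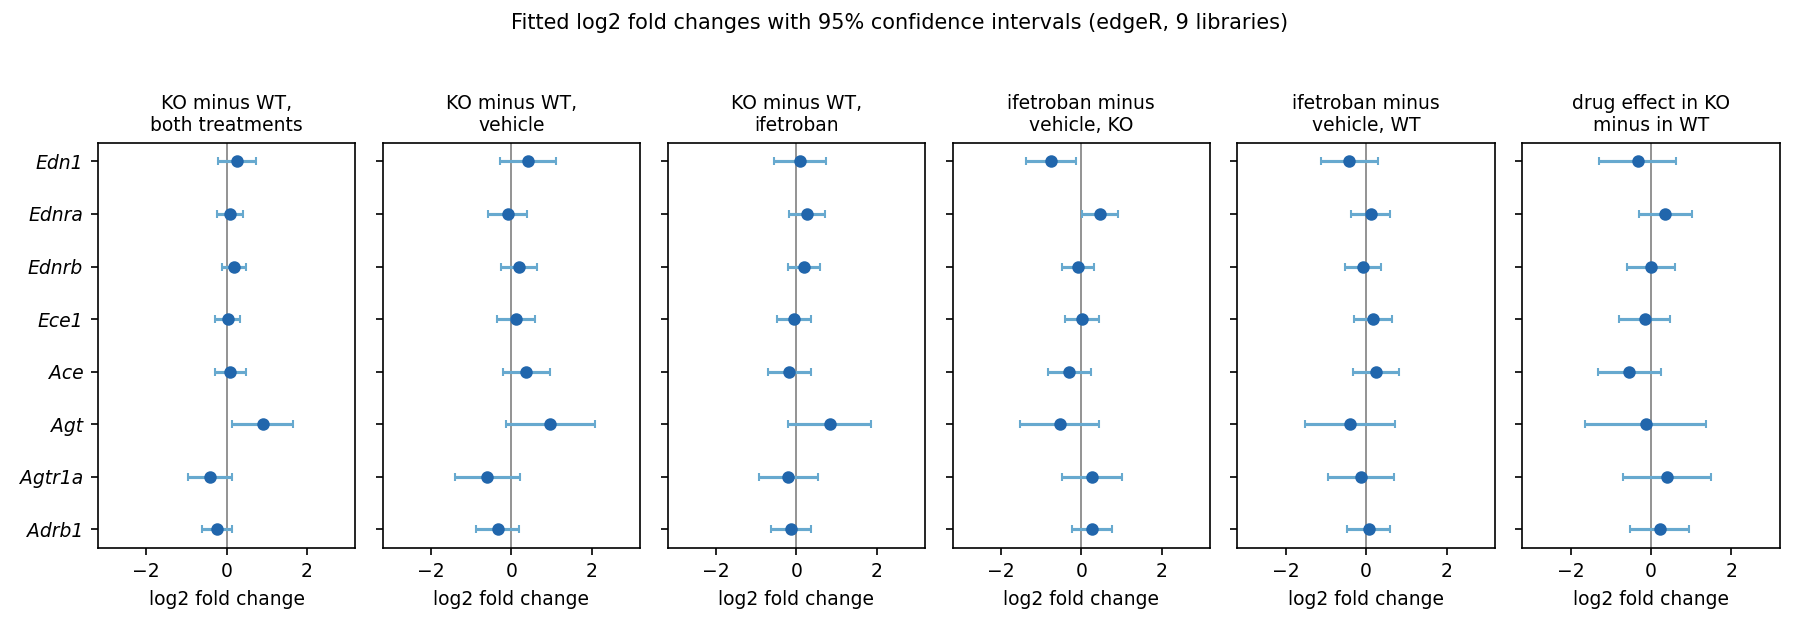
Fitted log2 fold changes (horizontal axes) of the 8 genes in the 6 contrasts, with 95% confidence intervals from the edgeR fit to 9 libraries. Intervals exclude 0 before adjustment for Agt in the averaged contrast and for Edn1 and Ednra under ifetroban in KO, and no gene passed after adjustment.

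Within ifetroban, KO minus WT was between -0.20 and 0.26 on the log2 scale for 7 of the 8 genes, Agt being the exception at 0.83, and adjusted p was 0.979 to 0.989 by edgeR. Of these, Ednra was 0.26, or 0.053 without KO ifetroban replicate 2, and Ednrb 0.19, or 0.11 without KO ifetroban replicate 3. Within vehicle the 8 values ran from -0.60 for Agtr1a to 0.96 for Agt, with adjusted p of 0.446 to 0.874 by edgeR. Ifetroban in WT gave values from -0.42 for Edn1 to 0.25 for Ace, which was 0.048 and 0.49 when WT vehicle replicates 1 and 2 were left out in turn. Edn1 was the 1 gene of 8 with separated libraries there, against 31.4% of all tested genes. Ifetroban in KO gave, besides Edn1 and Ednra, -0.54 ± 0.439 for Agt (-1.52 to 0.45) with all 3 ifetroban libraries below both vehicle libraries, a separation that 16% of all genes showed in either direction. Without KO vehicle replicate 1 the Agt value was -0.26. The other 5 genes lay within -0.30 to 0.28, with Ace at -0.30, or -0.56 and -0.15 without KO ifetroban replicates 3 and 1. The KO ifetroban and KO vehicle libraries also enter the genotype contrasts, so these values are not independent of them. Over all 5 KO and 4 WT libraries, 0 of the 8 genes had ranges that did not overlap, against 7.31% of all tested genes.

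**Figure D4:**
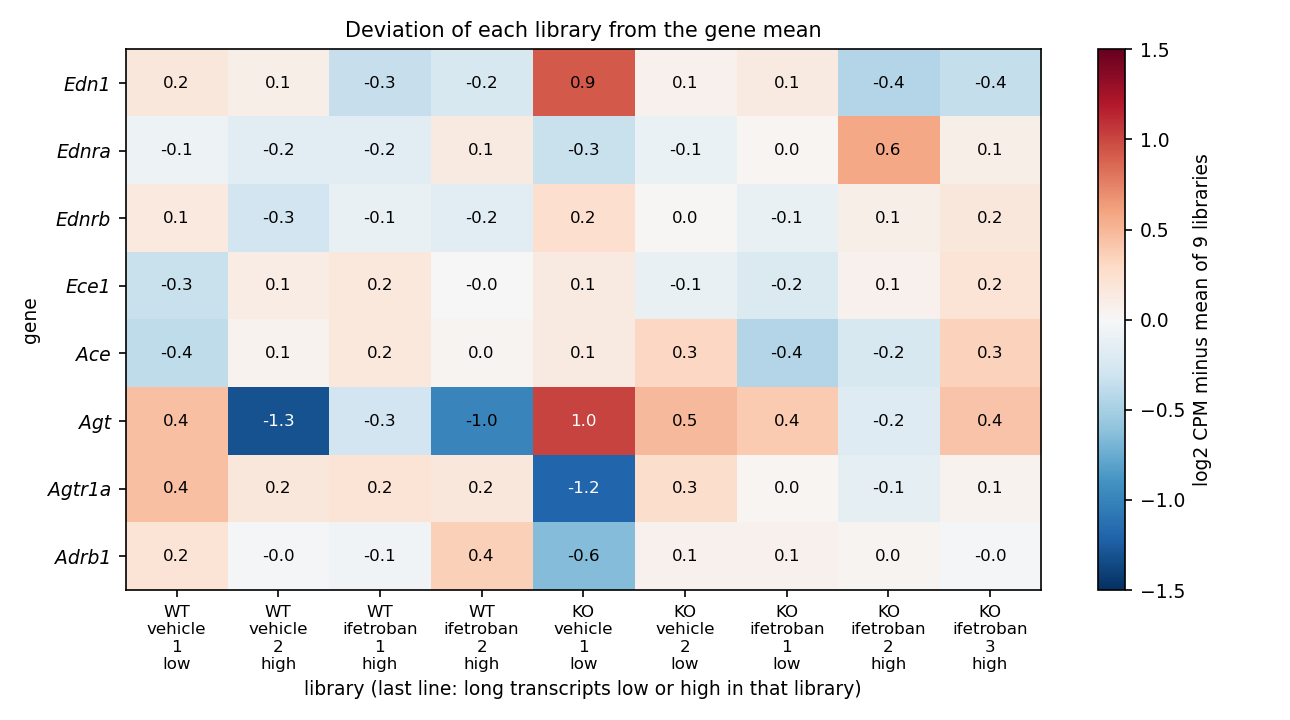
Log2 CPM of each gene (rows) in each library (columns) minus its mean over the 9 libraries, red for higher and blue for lower; the last line under each library says whether long transcripts were low or high in it. KO vehicle replicate 1 holds the largest deviations of Edn1 (0.92), Agtr1a (-1.20) and Adrb1 (-0.65), and Agt is lowest in WT vehicle replicate 2 (-1.31).

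The genes varied together, or in opposite directions, in a few pairs, and some of these values rested on KO vehicle replicate 1. Over the 9 libraries, the log2 CPM of both Gs- and Gq-coupled receptors Adrb1 and Agtr1a had a Pearson r of 0.881, which was 0.321 without KO vehicle replicate 1. Ednrb and Agt had r = 0.833 (0.774 without that library), and Ece1 and Ace, both converting enzymes, had r = 0.684 (0.671 without it). The other 25 of the 28 pairs had r between -0.693 and 0.492. The most negative were Edn1 with Ednra (-0.693, and -0.594 without that library), with Adrb1 (-0.678, and 0.185) and with Agtr1a (-0.656, and 0.601). Edn1 with Ece1 and Ednra with Agtr1a were -0.196 and 0.229, and -0.752 and -0.75 without that library. These values describe libraries that share groups and the length pattern, and no p is given. By the fixed rule, the genes most like each member, up to 3, among 11210 were Mus81, Med9 and Rps19bp1 for Edn1 (r = 0.951 to 0.968) and Plagl1 and Dnajb14 for Ednra (0.907 and 0.897). They were B4galt4, Acvrl1 and Shc2 for Ednrb (0.897 to 0.902) and Dab2ip, Zdhhc8 and Pcdh1 for Ece1 (0.957 to 0.980). For Ace they were Plbd2, Tmem184c and Smoc2 (0.878 to 0.905) and for Agt Pdlim5, Resf1 and Rpain (0.965 to 0.967). Agtr1a was most like Pdp1, Mblac2 and Pln (0.982 to 0.986), and Adrb1 most like Lzts1, Pgpep1 and Fyttd1 (0.957 to 0.969). Without KO vehicle replicate 1 the values of the Agtr1a and Adrb1 neighbours were 0.825 to 0.916.

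No gene of the wider pathways passed the edgeR test either. Of 100 further genes listed in 5 groups, 99 were matched, 83 were tested, and 0 were called by edgeR in any of the 6 contrasts. DESeq2 called 8 of the 84 with an adjusted p in the averaged contrast (4.77% of all genes), 3 of 84 within vehicle (2.32% of all genes) and 0 in the other 4. In the averaged contrast 39 were positive and 44 negative, and 21 (11 higher, 10 lower) had an unadjusted p under 0.05, beside 16.5% of all tested genes. The 16 genes that were not tested included Ren1 (renin), Agtr2 (the second angiotensin receptor), Cyp11b2 (aldosterone synthase) and Adrb3 (the beta-3 receptor), with at most 5 reads in any library. Agtr1b, the other rodent gene for the same angiotensin receptor as Agtr1a, had 0 reads in all 9 libraries.

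Among endothelin genes, 3 of 7 could be tested. Mme, which encodes neprilysin, a protease that degrades endothelin, angiotensin and natriuretic peptides, had the smallest p of the pathway genes. It was at 9.55 and 14.5 CPM in WT vehicle, 14.5 and 11.5 in WT ifetroban, 2.65 and 5.16 in KO vehicle and 5.75, 8.19 and 5.47 CPM in KO ifetroban. Every KO library was below every WT library, including the library labelled WT vehicle replicate 1. The mean was 5.45 ± 1.97 CPM (SD, n = 5) in KO and 12.5 ± 2.42 CPM (SD, n = 4) in WT, and the log2 fold change -1.31 ± 0.236 (-1.84 to -0.78; adjusted p = 0.0511 by edgeR), just outside the threshold. DESeq2 called it (-1.32, adjusted p = 2.76e-05), and leaving out single libraries gave -1.60 to -1.11. Within the length class that holds 2 KO and 3 WT libraries the log2 difference was -0.996. In the other it was -1.14, from 3 KO libraries and the library labelled WT vehicle replicate 1 alone. Ece2, a second converting enzyme, had 0.57 ± 0.195 (adjusted p = 0.207 by edgeR), and Edn3 0.21 ± 0.298 (adjusted p = 0.743 by edgeR), or 0.59 and -0.062 when replicates 1 and 2 labelled WT vehicle were left out in turn.

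Of the renin-angiotensin-aldosterone list, 14 of 22 genes were tested, 7 positive and 7 negative, with a median of 0.03 beside -0.004 over all genes. Anpep, an aminopeptidase that trims angiotensin peptides, was at 10.9 to 18.7 CPM in KO and 9.50 to 10.5 CPM in WT, with no overlap (0.52 ± 0.178, adjusted p = 0.207 by edgeR; 0.33 without KO vehicle replicate 2). Cma1, the mast cell chymase that can also form angiotensin II, was under 2 CPM in every library (0.89 ± 0.324, adjusted p = 0.230 by edgeR). Nr3c2, the mineralocorticoid receptor gene, and Lnpep had -0.67 ± 0.316 and -0.69 ± 0.365. Nr3c2 was -0.35 and -1.28 when KO vehicle replicates 1 and 2 were left out in turn, and Lnpep -0.20 when WT vehicle replicate 2 was. The Lnpep values followed the length classes, 35.5 to 50.6 CPM in the low and 115 to 131 CPM in the high class.

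Of 17 genes for adrenergic receptors and catecholamine handling, 12 were tested, 3 positive and 9 negative, with a median log2 fold change of -0.27. Adra1a, an alpha-1 receptor gene, was at 3.40 to 22.4 CPM in KO and 14.7 to 29.6 CPM in WT (-1.05 ± 0.366, adjusted p = 0.212 by edgeR; -1.69 without KO vehicle replicate 2), and at 3.40 to 14.7 CPM in the class with low long transcripts against 18.2 to 29.6 CPM in the other. Maob, a monoamine oxidase gene, was -0.42 ± 0.123 (adjusted p = 0.152 by edgeR), and it was lower in all 5 KO libraries (30.2 to 47.2 CPM) than in any WT library (48.9 to 57.8 CPM). Slc22a3, a catecholamine transporter of non-neuronal cells, was -0.73 ± 0.242 (adjusted p = 0.194 by edgeR), or -0.48 and -1.13 with KO vehicle replicates 1 and 2 left out in turn.

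Of the 31 genes of beta-adrenergic signalling, all tested, 18 were positive and 13 negative (median 0.05). Arrb2, beta-arrestin 2, which uncouples and internalises activated receptors, was at 9.19 and 8.11 CPM in WT vehicle, 7.98 and 7.53 in WT ifetroban, 20.4 and 12.9 in KO vehicle and 13.9, 12.8 and 12.2 CPM in KO ifetroban. All KO libraries were above all WT libraries. The log2 fold change was 0.84 ± 0.16 (0.48 to 1.20; adjusted p = 0.058 by edgeR), and 0.66 without KO vehicle replicate 1. The difference was 0.66 within the class of 2 KO and 3 WT libraries and 0.74 within the other, whose only WT-labelled library is WT vehicle replicate 1. The adenylyl cyclase gene Adcy7 was also separated (18.3 to 24.2 CPM in KO, 13.0 to 16.5 in WT; 0.56 ± 0.132; adjusted p = 0.0902 by edgeR). Adcy6, a main cyclase of cardiomyocytes, was -0.40 ± 0.144, and the phosphodiesterase gene Pde4d -0.77 ± 0.252 (adjusted p = 0.224 and 0.192 by edgeR). Both followed the length classes: Adcy6 was at 133 to 215 CPM in the low and 234 to 256 CPM in the high class, and Pde4d at 10.4 to 27.5 and 35.1 to 43.4 CPM. Within the high class KO minus WT was -0.032 for Adcy6 and -0.18 for Pde4d. Macrophage, fibroblast, atrial myocyte and adipocyte markers, each summed, were higher in all KO than in all WT libraries, as were Arrb2 and Adcy7, and their part in these values was not tested.

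The 23 genes of Gq signalling, the route of the endothelin and angiotensin receptors, were all tested, 9 positive and 14 negative (median -0.05). Prkcd, a protein kinase C gene, was at 17.0 to 28.5 CPM in KO and 12.4 to 16.5 CPM in WT (0.69 ± 0.168, adjusted p = 0.0977 by edgeR). Rcan1, a calcineurin regulator, was at 78.3, 98.5, 73.6 and 106 CPM in WT and at 1049, 131, 186, 206 and 125 CPM in KO. KO vehicle replicate 1 alone held the value of 1049 CPM. The log2 fold change was 1.84 ± 0.487 (adjusted p = 0.121 by edgeR) with that library and 0.76 without it. Trpc1 and Prkce had -0.38 ± 0.151 and -0.33 ± 0.142, and Prkce was -0.18 and -0.51 with KO vehicle replicates 1 and 2 left out in turn. In all, 7 of the 18 pathway genes named by rule had KO and WT ranges that did not overlap, with 7.31% of all tested genes in that state. These 18 were named for their small p in the same contrast, so that count is a description only.

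**Figure D5:**
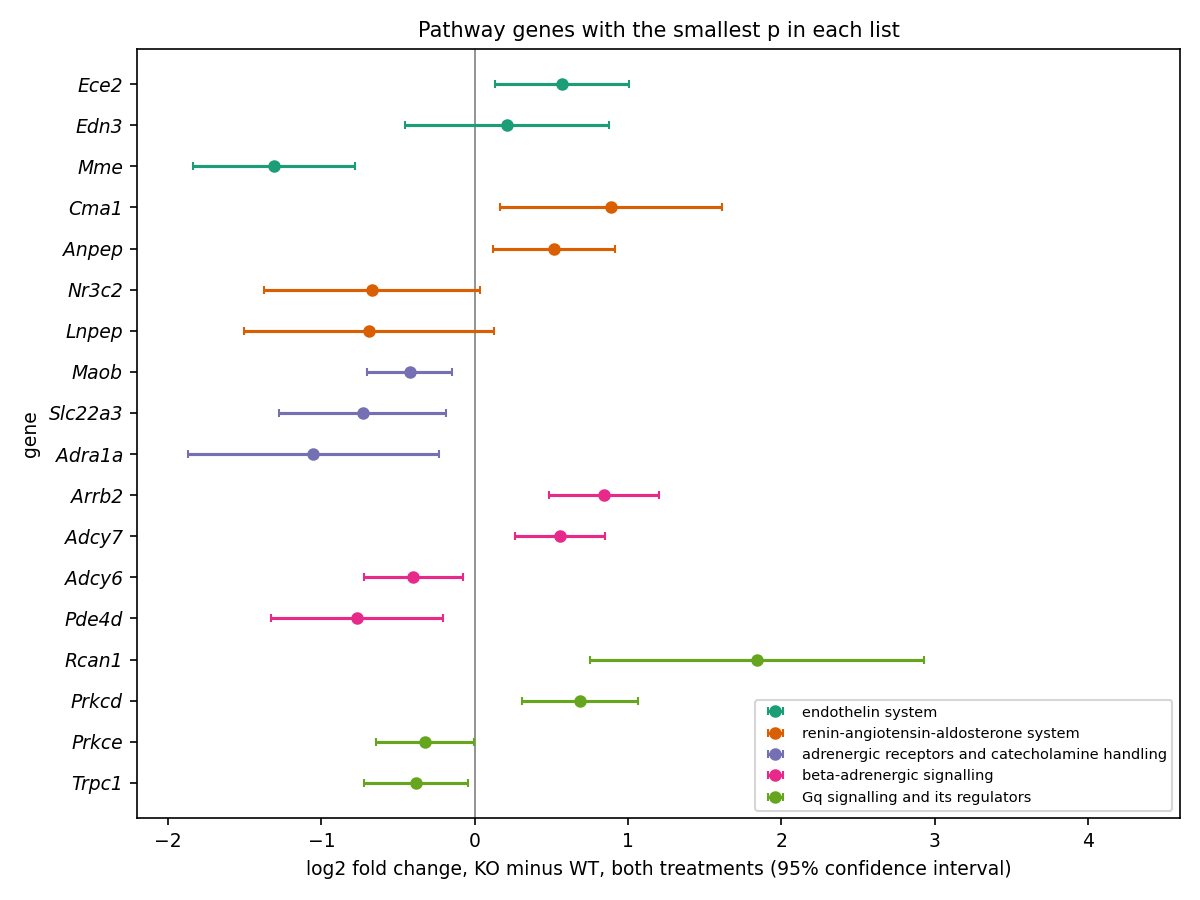
Log2 fold change of KO minus WT over both treatments (horizontal axis, with 95% confidence intervals) for 18 pathway genes named by small p in their lists, coloured by list. Mme (-1.31) and Arrb2 (0.84) have the smallest p, and Rcan1 (1.84) has the widest interval.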

How the data were processed

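The members and gene lists were chosen with earlier results of these data known. The authors deposited raw read counts per gene, 1 table per library; the submitters' processing notes name GRCm38, STAR 2.5.2b and HTSeq, and the annotation release is not given in the sources used here. The reverse-strand column was used, since reverse counts were 14.5 times forward counts. Rows that name no gene held 26.6% to 31.9% of reads and were left out. Symbols and exonic lengths came from GENCODE (GRCm38), with 49412 identifiers matched. Counts were fitted with edgeR 4.0.16 in R 4.3.3 (TMM, filterByExpr, 15261 genes, 1 coefficient per group, 9 libraries, two-sided quasi-likelihood F test, Benjamini-Hochberg adjustment over all tested genes). Fold changes carry a prior count of 0.125, and standard errors and intervals were calculated back from the F statistic and are approximate. STAR counts only uniquely aligned reads. Replicates of a group differed beyond sampling noise (chi-square per degree of freedom 14.2 to 88.1). The edgeR fit was also run on simulated counts with known changes. These had the same spread for every gene, no length trend and no outlying library. That run therefore does not show how the tests behave in the present libraries. DESeq2 1.42.0 and 18 other alternatives were run, 1 of them (the length class term) added after seeing the data. All 8 members were described; of each pathway list, called genes and up to 4 others with the smallest p in the averaged contrast were named; likeness was Pearson's r of log2 CPM over tested genes whose mean log2 CPM reached 1. Some genes that these rules select are not reported here and were not replaced by others.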

Additional observations from a re-analysis of the deposited data

How the results depend on the processing

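Groups of 2 or 3 libraries limit all tests, and the reads behind Edn1 and Agt are few. Beside the reported fit, 10 alternative settings and 9 fits that leave out 1 library each were run. Over the 48 log2 fold changes of the 8 genes (8 genes in 6 contrasts), direction and side of the threshold were the same in all 48 under DESeq2, RLE normalization and the CPM filter, and in all 32 that a fit of only the 2 groups compared can give. With no filter on low counts 1 of 8 genes (Agt) was called in the averaged contrast (adjusted p = 5.88e-04 by edgeR). That fit called 1684 of all genes there, beside 82 in the reported fit. Within vehicle 1 of 8 was also called (Agt, adjusted p = 0.0357 by edgeR), with 1195 of all genes beside 8. The call of Agt thus came with a general rise in the number of genes called. Leaving out any single KO ifetroban library called 0 of the 8 genes in every contrast. Leaving out any other library keeps 1 library in a group, so calls of the 8 genes in those fits are not given. Without KO vehicle replicate 2, Agtr1a was -0.86 in the averaged contrast, -1.52 within vehicle and 1.19 for ifetroban in KO. The cause of these changes was not tested.

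The number of all genes called moved far more. In the averaged contrast it was 82, and 745 with DESeq2, 1684 without the filter, 531 with the replicate block, 140 with length offsets, 9 with the length class term, 25 without both KO vehicle replicate 1 and WT vehicle replicate 1, and 2 to 2098 with 1 library left out. Within vehicle it was 8, and 363, 1195, 45, 18, 1, 2 and 1 to 1734 under the same settings, and 5 in the fit of 2 groups. Within ifetroban it was 2, and 68 with DESeq2, 428 without the filter, 12 in the fit of 2 groups, 14 without both libraries, 1 with the class term and 1 to 8 with 1 library left out. For ifetroban in KO it was 0, and 3 with DESeq2, 428 without the filter and 449 without KO vehicle replicate 2. Without the filter it was also 34 for ifetroban in WT and 73 for the interaction, both otherwise 0.

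Whether replicate numbers pair the libraries cannot be decided from these data. Same-numbered libraries of different groups had correlations of deviations of 0.001 to 0.478, all positive. Between groups of 2 libraries, the different-numbered pairs must give the same values with opposite sign, so they are no separate comparison. A fit with the replicate block called 0 of the 8 genes and turned the sign of Ece1 (-0.021) and Ace (-0.036) in the averaged contrast and of Ece1 for ifetroban in KO (-0.089).

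Signs that turned under other settings were all of values that had not passed the test. With unstranded counts the interaction of Ednrb was 0.014. With length offsets Edn1 within ifetroban was -0.031 and Ece1 for ifetroban in KO -0.044. With the length class term Edn1 and Ece1 within ifetroban were -0.045 and 0.067, Ece1 and Agt for ifetroban in KO -0.26 and 0.069, Ece1 and Agt for ifetroban in WT -0.004 and 0.20, and the interaction of Ednrb 0.001. Without both KO vehicle replicate 1 and WT vehicle replicate 1, Ece1 was -0.14 in the averaged contrast. Within vehicle, Edn1 was -0.013, Ednra 0.068, Ece1 -0.22, Agtr1a 0.10 and Adrb1 0.089. For ifetroban in KO, Ednrb was 0.037, Agtr1a -0.29 and Adrb1 -0.035 in that fit, and for ifetroban in WT Ednrb was 0.16, Ece1 -0.028, Agt 0.71 and Agtr1a 0.019. The interaction was 0.095 for Edn1, 0.17 for Ece1, -0.31 for Agtr1a and -0.22 for Adrb1.

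Leaving out single libraries turned the sign of the following values, given as ranges. Averaged, Ednra ran from -0.028 to 0.16, Ece1 from -0.092 to 0.14, Ace from -0.049 to 0.20 and Edn3 from -0.062 to 0.59. Within vehicle, Edn1 ran from -0.058 to 0.78, Ednra from -0.23 to 0.017, Ednrb from -0.026 to 0.40 and Ece1 from -0.12 to 0.34. Within ifetroban, Edn1 ran from -0.11 to 0.18, Ece1 from -0.16 to 0.054 and Adrb1 from -0.32 to 0.090. For ifetroban in KO, Ednrb ran from -0.18 to 0.038, Ece1 from -0.092 to 0.14, Agtr1a from -0.28 to 1.19 and Adrb1 from -0.034 to 0.69. For ifetroban in WT, Ednra ran from -0.038 to 0.26, Ednrb from -0.27 to 0.16, Ece1 from -0.027 to 0.43, Agt from -1.03 to 0.71, Agtr1a from -0.25 to 0.019 and Adrb1 from -0.15 to 0.26. The interaction ran from -0.70 to 0.14 for Edn1, -0.22 to 0.20 for Ednrb, -0.40 to 0.063 for Ece1, -1.23 to 0.51 for Agt, -0.16 to 1.31 for Agtr1a and -0.099 to 0.62 for Adrb1.

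Of the 18 named pathway genes, 7 were called in the averaged contrast with DESeq2, where 4.77% of all genes were called. Without the filter it was 10, with 1684 of all genes called. With the replicate block it was 4 (Mme, Adra1a, Pde4d and Arrb2), with 531 of all genes. With length offsets it was 3 (Mme, Adcy7 and Arrb2), with 140 of all genes. With unstranded counts it was 1 (Mme). It was 0 with the class term (9 of all genes) and without any single KO ifetroban library. Fits that leave 1 library in a group are not counted here. The 18 were named for their small p in the same contrast, so these counts are a description only.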
